A study of Mus musculus with 5 samples.

Results

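The genes described here build the route by which a plasma cell (PC) brings its antibody chains into the endoplasmic reticulum (ER), attaches sugars to them and sends them on to the Golgi. They were taken from a list of 44 genes in 3 classes: the signal recognition particle (SRP), its receptor and the translocon (17 genes), the signal peptidase and the oligosaccharyltransferase (OST, 12 genes), and the COPI and COPII vesicle coats with their cargo receptors (15 genes). Of these, 43 were measured, among 13569 genes tested on the arrays, and all 43 passed the filter on low values. The remaining gene, Sec61g, had only a probe set that is shared with other genes, so no value is given for it.

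Secretory proteins are recognised while they are still being made: SRP binds the signal peptide, docks at its receptor on the ER membrane and hands the ribosome to the Sec61 channel. The signal peptidase then removes the signal peptide, and OST transfers a preformed sugar tree onto asparagine residues of the growing chain. Folded cargo leaves the ER in COPII vesicles, and COPI vesicles bring escaped ER proteins and receptors back. PCs are specialised for this route, since each cell secretes antibody continuously.

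PCs from the bone marrow of C57BL/6J mice were measured on Affymetrix arrays. The mice had been primed with the hapten NP on chicken gamma globulin (NP-CCG in the labels) and boosted in cycles of 21 days, and more than 30 days lay between the final boost and isolation. Ex vivo PCs (2 arrays, 1 per experiment) were processed directly after magnetic removal of cells carrying B220 or CD49b and enrichment of CD138high cells. Cultured PCs (3 arrays, 1 from experiment 1 and 2 from experiment 2) were isolated in the same way, kept for 3 days with ST2 cells, a murine stromal cell line, in the presence of the cytokine APRIL at physiological oxygen, and then sorted on a flow cytometer. Both groups had the same genotype and immunisation. Since only cultured PCs were flow sorted and kept with ST2 cells, culture, the sort and carry-over of ST2 cells cannot be told apart. The sample titles give E1 and E2, which were read here as experiments 1 and 2. The labels do not say whether the 2 cultured arrays of experiment 2 came from separate cultures, so that p-values may in part measure technical spread. Values are RMA intensities on the log2 scale, where a difference of 1 is a 2-fold change, and each gene is given by its brightest probe set. Where values are listed, ex vivo values are those of experiments 1 and 2 in this order, and cultured values are that of experiment 1 and then those of experiment 2. RNA per cell and the share of PCs in a sample cannot be told apart in such bulk values.

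The arrays had median intensities between 87.05 and 94.14 over all probe sets. Of 14 PC marker genes, none was called with or without the experiment as a block, and their summed intensity ranged from 80194 to 83003 ex vivo and from 74726 to 77230 after culture. Of the 14, 12 had a difference below 0, and 6 were lower in all cultured than in all ex vivo arrays (13.0% of all genes). Fkbp11, an ER folding protein, stood at -0.93 without the block and at -1.0019 with it (limma with the block, adjusted p = 0.0503). Eaf2 stood at -0.65 without the block and at -0.6582 with it (limma with the block, adjusted p = 0.0541). Tnfrsf17 stood at -0.37 without the block and at -0.32 with it, and was lower in all cultured arrays. Xbp1, the transcription factor of the secretory programme, had the smallest difference of the 14 (-0.01 without the block). It was measured at 13.60 and 13.96 ex vivo and 13.38, 13.96 and 13.97 after culture. Markers of stromal cells moved with culture: 20 of 25 were higher in every cultured array than in either ex vivo array, and their summed intensity lay between 2108 and 2155 ex vivo and between 8118 (experiment 1) and 20436 after culture. Without the block 2 of them, Cav1 and Pcolce, were called higher (14 higher and 1 lower with it), and 10 of the 27 listed stayed below an intensity of 50 in both ex vivo arrays (Lum and Postn in all arrays). The leading stromal genes were Col6a1 (6.08), Col1a2 (5.45) and Fn1 (4.53), given as cultured minus ex vivo on the log2 scale. Among macrophage markers C1qb (-2.36), C1qa (-2.18) and Fcna (-1.82) stood lower after culture, of which C1qa was called, while Cd68 (0.84) was higher in all cultured arrays. With the block 5 of the 12 macrophage markers were called lower and 1 higher. Of the listed genes of neutrophils (4 tested), B cells (12), erythroid cells (3) and T and NK cells (7), none was called without the block, and with it 2 B cell genes and 1 T or NK cell gene were called lower. The part of these other cells in the values of the secretory genes was not tested.

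The first comparison asked whether the PCs kept the transcripts of this machinery over 3 days in culture. No member was called for culture at an adjusted p under 0.05 (limma, Benjamini-Hochberg over all 30477 tested probe sets), beside 0.059% of all tested genes. With the experiment as a block, which allows each experiment its own level, again none of the 43 was called, beside 1.73% of all tested genes. Culture differences of single genes are given without the block unless the block is named. At an unadjusted p under 0.05, no member passed without the block (6.65% of all genes) and 1 passed with it (17.3% of all genes). The median difference of the 43 members was -0.05 on the log2 scale, against -0.06 for all tested genes, and their median absolute difference was 0.10 against 0.16.

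In the fit with the block, the 95% interval of every member's brightest probe set lay between -0.65 and 0.68 on the log2 scale. None of these intervals thus reached a 2-fold change, while 94.4% of all tested genes had an interval within 2-fold. The intervals are not adjusted for the number of genes. In the same fit, the interval of a dimmer Rpn1 probe set extended past a 2-fold decrease. That of a dimmer Lman1 probe set extended past a 2-fold increase, so that such a change was not excluded in these probe sets. Without the block, 41 of 43 intervals of the brightest probe sets stayed within 2-fold. The exceptions, Srp19 and Sec31a, were the members that differed most between the experiments. In direction, 14 members were lower in each cultured array than in the ex vivo array of the same experiment (29.7% of all genes) and 3 were higher (18.9% of all genes), where the 2 pairs of experiment 2 share their ex vivo array. In the stricter comparison of the groups as a whole, 3 members, Ssr2, Srp14 and Rpn1, were lower in all cultured than in all ex vivo arrays (13.0% of all genes), and none was higher in all of them (7.75% of all genes). Ssr2 and Rpn1 are described for this reason, chosen after their values were seen.

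**Figure D1:**
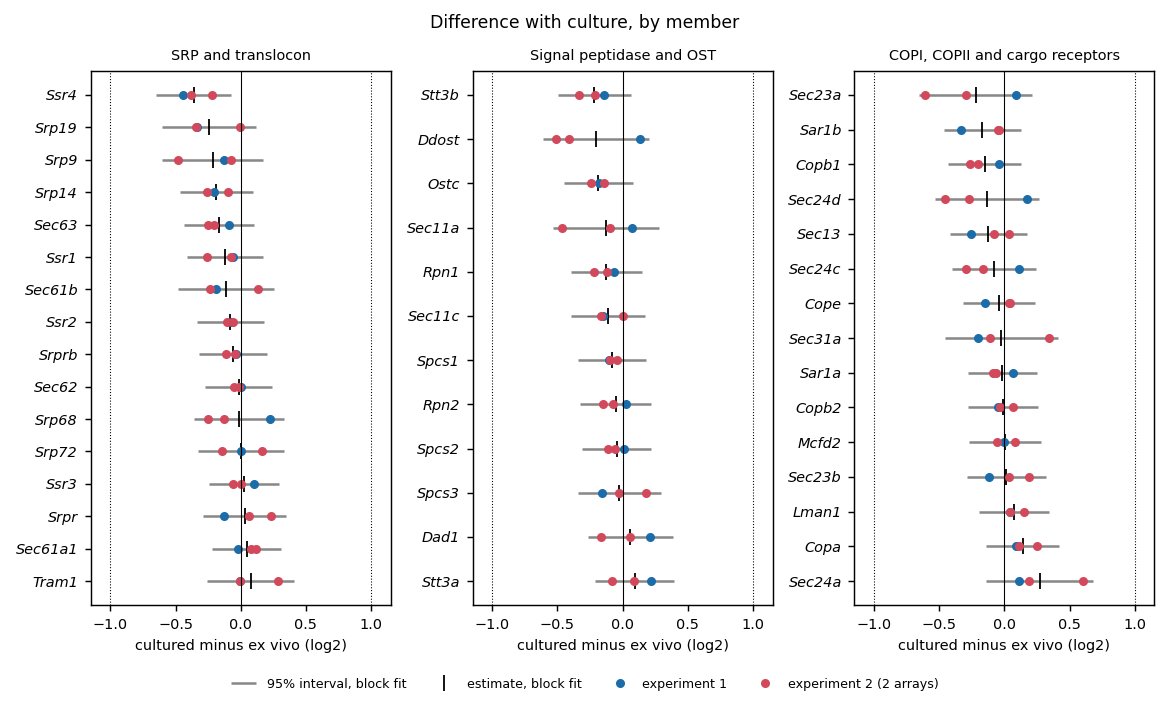
Cultured minus ex vivo difference on the log2 scale (horizontal axis) for the brightest probe set of each of the 43 members, by class. Points are single cultured arrays against the ex vivo array of the same experiment, the short vertical line is the block fit's estimate and the bar its 95% interval; every bar lies between the dotted lines at a 2-fold change (-1 and 1).

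SRP is built on a small RNA, and Srp9 and Srp14 sit at the end of the particle that slows translation. Srp14 was measured at 12.64 and 12.48 ex vivo and 12.44, 12.22 and 12.38 after culture. All cultured arrays were thus below both ex vivo arrays, with a difference of -0.21 ± 0.14 (SE) that was not called (limma, adjusted p = 0.869), and its 4 tested probe sets were all lower after culture, from -0.21 to -0.64. Its partner Srp9 read 12.40 and 12.64 ex vivo and 12.27, 12.16 and 12.57 after culture. Its groups overlapped, with a difference of -0.19 ± 0.18 (SE). Srp19, which binds the RNA and prepares it for the signal-binding subunit, had the largest culture difference of all members at -0.45 ± 0.56 (SE). Its values were 11.79 and 10.48 ex vivo and 11.46, 10.13 and 10.48 after culture, so that the distance between the experiments exceeded that between the groups. With the block the difference was -0.24 (95% interval -0.60 to 0.12). Srp72, which forms a pair with Srp68, was nearly flat at 12.22 and 12.22 ex vivo and 12.22, 12.37 and 12.07 after culture. Its 2 ex vivo arrays and the cultured array of experiment 1 had the same value to 2 decimals. Srp68 itself differed by -0.02, and the receptor subunits Srpr and Srprb by 0.10 and -0.03.

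Sec61a1 encodes the pore-forming subunit of the channel, through which antibody chains enter the ER. It was measured at 13.16 ± 0.17 ex vivo (SD, n = 2) and 13.17 ± 0.08 after culture (SD, n = 3), with single arrays at 13.28 and 13.03 ex vivo and 13.26, 13.15 and 13.11 after culture. The cultured arrays fell between the 2 ex vivo arrays, and the difference was 0.05 (95% interval -0.22 to 0.31) with the block. The 6 tested probe sets of Sec61a1 stood between -0.36 and 0.02 without the block, with none called for culture. Sec61b, the small tail-anchored channel subunit, gave 11.90 and 12.03 ex vivo and 11.71, 11.79 and 12.16 after culture. Its groups overlapped as well, with a difference of -0.11 (95% interval -0.48 to 0.25) in the block fit. Sec62 and Sec63, which assist translocation beside the channel, differed by -0.02 and -0.12. In its brightest probe set Sec62 had the narrowest range of all members, 0.05 over the 5 arrays. Its dimmer probe sets ranged more widely, up to 0.85. The 5 tested probe sets of Sec62 stood between -0.40 and 0.21 for culture without the block, with none called.

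The translocon-associated protein complex (TRAP, Ssr1 to Ssr4) and Tram1 help signal peptides insert into the channel. Ssr4 encodes the TRAP delta subunit and had the largest culture difference of this group. It read 12.74 in experiment 1 and 12.25 in experiment 2 ex vivo, and 12.30 in experiment 1 and 11.87 and 12.03 in experiment 2 after culture. Each cultured array lay below the ex vivo array of its experiment, though the groups overlapped. The difference was -0.43 ± 0.22 (SE) without the block and -0.36 (95% interval -0.65 to -0.07) with it (limma, unadjusted p = 0.0225, adjusted p = 0.195). Among the brightest probe sets, that of Ssr4 was the only one whose interval left out 0. Some dimmer probe sets of other members, among them Lman1, Sec24a, Sec62, Sec63 and Rpn1, also had block intervals that left out 0. A dimmer probe set of Ssr4 gave -0.38 and the dimmest 0.08. Ssr2 was lower in all cultured arrays, with a difference of -0.07, at 11.67 and 11.70 ex vivo and 11.59, 11.59 and 11.64 after culture. Ssr1, Ssr3 and Tram1 differed by -0.05, 0.07 and 0.09.

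**Figure D2:**
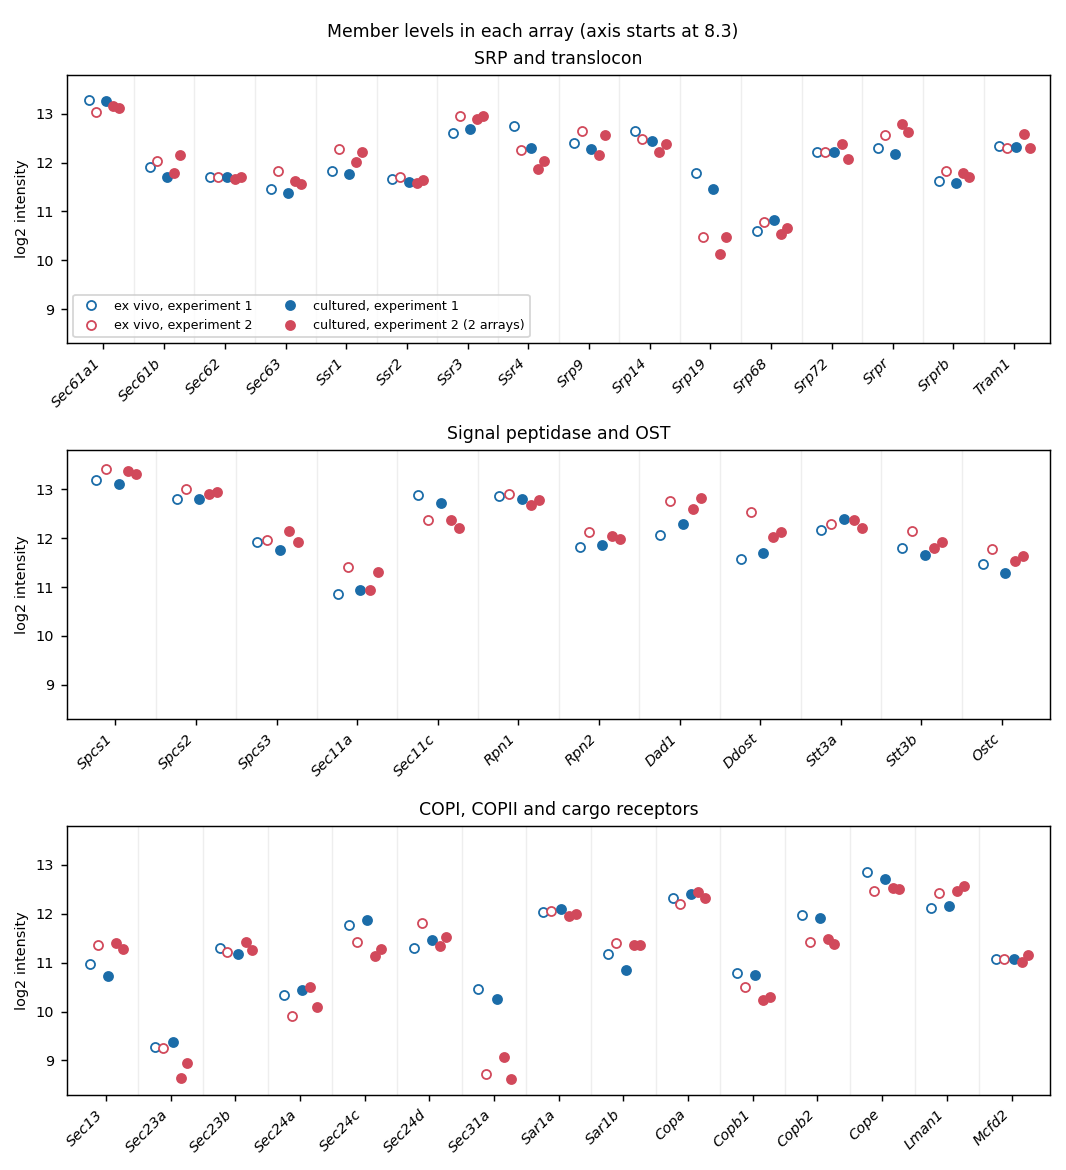
log2 intensity (vertical axis) of the brightest probe set of each of the 43 members in all 5 arrays, by class, with open symbols for ex vivo and filled symbols for cultured PCs. Srp19 and Sec31a separate by experiment (colour) and not by open and filled symbols.

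The signal peptidase cuts the signal peptide once the chain has entered the ER. Its catalytic subunits are Sec11a and Sec11c, held by Spcs1, Spcs2 and Spcs3. Sec11c had the largest culture difference of the class at -0.19 ± 0.24 (SE), with 12.88 and 12.37 ex vivo and 12.73, 12.37 and 12.20 after culture. One cultured array of experiment 2 had the value of its ex vivo array to 2 decimals, and the difference shrank to -0.11 (95% interval -0.40 to 0.17) with the block. Spcs3 was level between the groups at 11.92 and 11.96 ex vivo and 11.76, 12.14 and 11.93 after culture. Spcs1, Spcs2 and Sec11a differed by -0.04, -0.02 and -0.07.

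OST carries its active site in either Stt3a or Stt3b. Stt3a acts beside the translocon and Stt3b also on sites that were missed. Stt3b was measured at 11.80 and 12.14 ex vivo and 11.66, 11.80 and 11.93 after culture. Each cultured array was below its own ex vivo array, with a difference of -0.22 (95% interval -0.50 to 0.06) in the block fit (limma, adjusted p = 0.373), and a second probe set gave -0.51 (adjusted p = 0.0921), the lowest adjusted p of all 93 tested probe sets of the members. Stt3a lay on the other side at 0.09, and its 4 probe sets were all higher after culture, from 0.09 to 0.28. The difference between the pair was 0.27 on the log2 scale (exact permutation test, two-sided p = 0.3; the smallest p that 2 against 3 arrays allow is 0.1).

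Among the other OST subunits, Rpn1 was lower in all cultured arrays at 12.87 and 12.89 ex vivo and 12.80, 12.68 and 12.78 after culture. Its difference of -0.13 was not called (limma, adjusted p = 0.909). The exact permutation test gave the smallest possible p of 0.1, and the share of all genes at that p was not computed. The 5 probe sets of Rpn1 were all lower, from -0.10 to -0.78, of which 4 are of a kind that can bind related transcripts. The brightest probe sets of Srp14, Stt3a and Dad1 are of the same kind. Rpn2 was level between the groups (-0.02), at 11.83 and 12.12 ex vivo and 11.85, 12.05 and 11.97 after culture. Dad1, a small subunit first known for its role in cell survival, gave 12.07 and 12.77 ex vivo and 12.28, 12.60 and 12.82 after culture. Its difference of 0.15 ± 0.28 (SE) was smaller than the SD of either group. Ostc, which links OST to the channel, gave 11.47 and 11.78 ex vivo and 11.29, 11.54 and 11.64 after culture. Each cultured array stood below its ex vivo array, and the block fit gave -0.19 (95% interval -0.45 to 0.08). Ddost differed by -0.10 without the block and by -0.20 with it.

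The COPII coat forms in layers. The small GTPases Sar1a and Sar1b start it, pairs of Sec23 and Sec24 proteins form the inner layer that selects cargo, and Sec13 and Sec31a form the outer cage. Sec24a had the largest positive difference of all members, with 10.34 and 9.90 ex vivo and 10.45, 10.50 and 10.09 after culture. Each cultured array was above its ex vivo array, by 0.27 (95% interval -0.14 to 0.68) in the block fit. A second probe set gave 0.48 (95% interval 0.09 to 0.88) in the same fit and was not called (limma, adjusted p = 0.198). Sec23a gave 9.28 and 9.25 ex vivo and 9.37, 8.64 and 8.95 after culture. It was lower in the cultured arrays of experiment 2 and higher in that of experiment 1, and the difference was -0.22 (95% interval -0.65 to 0.21) with the block. Its paralog Sec23b was level at 11.29 and 11.23 ex vivo and 11.18, 11.42 and 11.26 after culture. Sec31a differed by -0.28 ± 0.70 (SE) without the block and by -0.02 with it. Sec24c, Sec24d and Sec13 differed by -0.17, -0.10 and -0.04, Sar1a and Sar1b by -0.03 and -0.10.

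In the COPI coat, Copb1 encodes the beta subunit of the layer next to the membrane. It was measured at 10.78 and 10.50 ex vivo and 10.74, 10.24 and 10.30 after culture. Each cultured array was below its ex vivo array, with -0.15 (95% interval -0.43 to 0.13) in the block fit. Copa and Copb2, of the outer layer, differed without the block by 0.13 and -0.10 in their brightest probe sets. Their other probe sets gave 0.12 and 0.02 in that fit, and the brightest of Copb2 gave -0.01 with the block. Cope differed by -0.09. Lman1 (ERGIC-53) and its partner Mcfd2 carry glycoproteins out of the ER. Mcfd2 was level at 11.08 and 11.07 ex vivo and 11.08, 11.01 and 11.15 after culture, and Lman1 stood at 0.13, with 5 probe sets between -0.15 and 0.74. In all, of the 25 members with several tested probe sets, 8 were lower after culture in all of them, 4 were higher in all of them and 13 were mixed, with no probe set called in either fit.

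The promoters of the members were searched for elements bound by factors of the unfolded protein response (UPR), which drives ER genes in PCs. RefSeq windows (build GRCm38.p6, 250 bases before to 50 after the annotated start) were at hand for 35 of the 44 listed genes. The core of the UPR element, TGACGTGG on either strand, was found in 4 of the 35 genes (11.43%), beside 0.71% of 27025 genes with such windows. All 4, Copb1, Copb2, Sec23a and Sec24d, encode vesicle coat subunits. Their sequences from 60 bases before to 20 after the start are shown on the strand of the gene, since they are the members that hold this element, with the element in capitals.
Copb1 (chr7:114254661-114254740, minus strand): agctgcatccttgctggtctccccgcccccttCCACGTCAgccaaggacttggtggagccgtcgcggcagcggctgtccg
Copb2 (chr9:98563671-98563750, plus strand): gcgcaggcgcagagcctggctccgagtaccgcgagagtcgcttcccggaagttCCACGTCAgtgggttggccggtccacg
Sec23a (chr12:59011998-59012077, minus strand): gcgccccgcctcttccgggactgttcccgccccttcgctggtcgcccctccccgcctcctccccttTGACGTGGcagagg
Sec24d (chr3:123267436-123267515, plus strand): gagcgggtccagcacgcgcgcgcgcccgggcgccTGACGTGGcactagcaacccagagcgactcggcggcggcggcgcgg
In Copb1 and Copb2 the letters run as CCACGTCA, the same element read from the other strand. It began 28 bases before the start in Copb1, 26 before in Sec24d, 7 before in Copb2 and at base 7 of the transcript in Sec23a. The ER stress element (CCAAT and CCACG with 9 bases between them) and its second form (ATTGG and CCACG with 1 base between them) were found in none of the 35 genes, beside 0.14% and 0.04% of all genes. The cyclic AMP response element TGACGTCA was found in Cope alone (2.86% of the 35 genes, 2.03% of all). A match of letters is a description and no measured binding. With the block, the 4 genes with the UPR core differed by -0.15 (Copb1), -0.01 (Copb2), -0.22 (Sec23a) and -0.13 (Sec24d) after culture, all with intervals that included 0. Sec24d was named for its promoter and not for its values, which were 11.29 and 11.80 ex vivo and 11.47, 11.35 and 11.53 after culture.

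The 2 experiments were then compared with each other, with culture as a covariate. Of the 43 members, 8 were called, beside 25.1% of all tested genes. Of these, 3 were higher in experiment 2 (11.0% of all genes) and 5 were lower (14.1% of all genes). The median absolute difference between the experiments was 0.26 on the log2 scale for the members and 0.25 for all genes, above the 0.08 and 0.14 for culture in the same fit. In 34 of 43 members (79.1%) the experiments differed by more than the groups did, as in 64.3% of all genes. All arrays of experiment 2 were above those of experiment 1 for 15 members (22.0% of all genes) and below them for 10 (27.0% of all genes).

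Sec31a, the outer cage of COPII, differed most. It read 10.45 in experiment 1 and 8.73 in experiment 2 ex vivo, and 10.25 in experiment 1 and 9.07 and 8.61 in experiment 2 after culture. All arrays of experiment 2 were thus lower, with a difference of -1.54 ± 0.17 (SE, adjusted p = 0.00505). Srp19 followed with -1.22 ± 0.14 (SE, adjusted p = 0.00536), and its groups by experiment did not overlap either, as its values above show. Both genes have 1 tested probe set. Sec24c, at -0.53 ± 0.13 (SE, adjusted p = 0.0348), and Copb2, at -0.52 ± 0.11 (SE, adjusted p = 0.0214), were lower in experiment 2 in their brightest probe sets. Sec24c was measured at 11.77 and 11.43 ex vivo and 11.88, 11.14 and 11.27 after culture, and Copb2 at 11.97 and 11.42 ex vivo and 11.92, 11.48 and 11.38 after culture. Sec11c, the catalytic signal peptidase subunit, stood at -0.47 ± 0.11 (SE, adjusted p = 0.0333).

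Higher in experiment 2 were 2 OST subunits and 1 coat subunit. Ddost was measured at 11.56 in experiment 1 and 12.54 in experiment 2 ex vivo, and at 11.70 in experiment 1 and 12.03 and 12.13 in experiment 2 after culture, a difference of 0.63 ± 0.16 (SE, adjusted p = 0.0402). The ex vivo arrays were further apart than the cultured ones. Dad1 was higher by 0.54 ± 0.13 (SE, adjusted p = 0.0332), in both of its probe sets. Sec13, the partner of Sec31a in the cage, was higher by 0.53 ± 0.12 (SE, adjusted p = 0.027), at 10.98 and 11.37 ex vivo and 10.72, 11.40 and 11.29 after culture. The single tested probe sets of Sec13 and Sec31a therefore moved in opposite directions between the experiments. Ddost was also the member closest to an unequal response to culture in the 2 experiments (interaction -0.60, limma, unadjusted p = 0.0449). No member was called for the interaction, and neither was any other gene (0.0%). Ddost was the 1 of 43 members with an unadjusted p under 0.05 (5.73% of all genes).

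**Figure D3:**
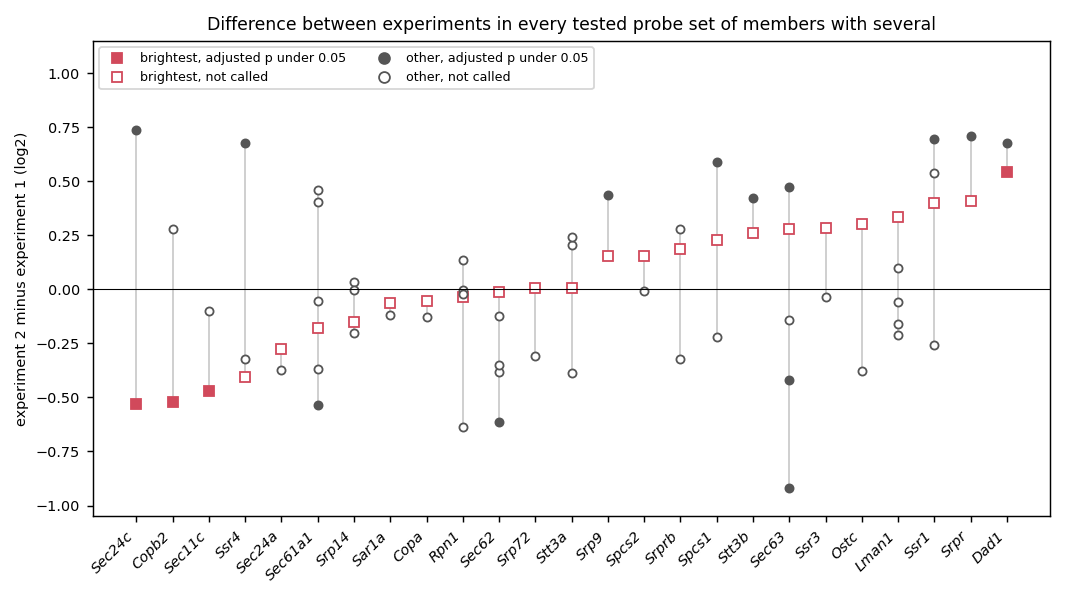
Experiment 2 minus experiment 1 on the log2 scale (vertical axis) for every tested probe set of the 25 members with several; squares are the brightest probe set, circles the others, filled where the adjusted p was under 0.05. In 16 of 25 members the probe sets lie on both sides of 0, and Sec24c and Sec63 hold called probe sets in both directions.

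The probe sets of a gene often disagreed on the experiments. Of the 25 members with several tested probe sets, 16 had differences of both signs, and the median gap between the lowest and highest probe set of a gene was 0.55 on the log2 scale, against 0.23 for culture. Sec24c had a second, dimmer probe set that was higher in experiment 2 by 0.74, and the other probe set of Copb2 stood at 0.28 and was not called. For Sec63, 1 probe set was called higher (0.47) and 2 lower (-0.42 and -0.92), and for Ssr4 the dimmest was called higher (0.68) while the brightest stood at -0.40 (adjusted p = 0.0522). In Dad1 and Sec24c both tested probe sets were called, in Dad1 in the same direction (higher) and in Sec24c in opposite ones. Control probe sets compare the 3′ end of a transcript with its 5′ end. For Gapdh this log2 ratio stood at 0.74 ex vivo and 0.63 after culture in experiment 1, whereas the 3 arrays of experiment 2 ranged from 0.28 to 0.34. For Actb it was 0.31 ex vivo and 0.77 after culture in experiment 1, against -0.12 to -0.01 in experiment 2. Its part in the differences between the experiments was not tested. The count of 8 fell to 0 without either ex vivo array or without the cultured array of experiment 1, to 6 and 2 without the first or second cultured array of experiment 2, and to 3 with these 2 averaged.

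Of the 12 pairs of paralogs listed, 11 had both genes tested. The ratio between the paralogs differed between the groups by values from -0.68 (Sec61a1 over Sec61a2) to 0.54 (Copg1 over Copg2) on the log2 scale. No pair reached the smallest exact permutation p of 0.1 (two-sided p from 0.2 to 1.0, and 1.0 after Benjamini-Hochberg adjustment over the 11 pairs). The ratio differed by 0.27 for Stt3a over Stt3b, 0.12 for Sec11a over Sec11c, -0.30 for Sec23a over Sec23b, 0.04 for Sec24a over Sec24b and -0.07 for Sec24c over Sec24d. It differed by 0.08 for Sar1a over Sar1b, 0.13 for Tram1 over Tram2, 0.10 for Copz1 over Copz2 and -0.32 for Lman1 over Lman2. The ratio of Sec61a1 to its minor paralog Sec61a2 did separate the experiments, by -1.80, with 7.90 and 9.22 ex vivo and 8.09, 9.85 and 9.82 after culture for Sec61a2. It was 1 of 6 pairs at the smallest exact permutation p of 0.1 between the experiments, which was 0.183 after adjustment over the 11 pairs.

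A further 121 genes of the same route were examined as a list around the members: 0 were called for culture without the block (0.059% of all genes) or with it (1.73% of all genes). Their median difference was -0.10 on the log2 scale, with 37 higher and 84 lower, against 13 higher and 30 lower among the members and 5302 higher and 8267 lower among all genes. At the channel, Sec61a2 (0.69) and the co-chaperone Dnajc1 (-0.36) had the largest differences of 5 genes. Among 13 genes of membrane protein insertion these were Get1 (-0.21) and Get4 (-0.17). In the 36 genes of sugar precursor synthesis and OST, Dolpp1, which recycles the lipid carrier, stood at -0.36 and the mannosyltransferase Alg2 at 0.34. The glucosidase II subunits Ganab (-0.23) and Prkcsh (-0.23) led the 6 genes of glycan trimming. In the 24 further genes of COPII and exit sites, the cargo receptor Lman2 (0.45) and the SNARE Ykt6 (-0.40) differed most, and in the 28 of COPI and retrieval, the cargo adaptor Tmed2 (-0.62) and the SNARE Bnip1 (-0.61). Among the 9 regulators, Creb3l1 (-0.49) and the activating protease Mbtps1 (-0.38) differed most. Bnip1 came closest to a call, with -0.55 (95% interval -0.83 to -0.27) in the block fit (limma, adjusted p = 0.0869). It was lower in all cultured arrays, at 7.72 and 7.47 ex vivo and 7.30, 6.82 and 6.83 after culture.

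**Figure D4:**
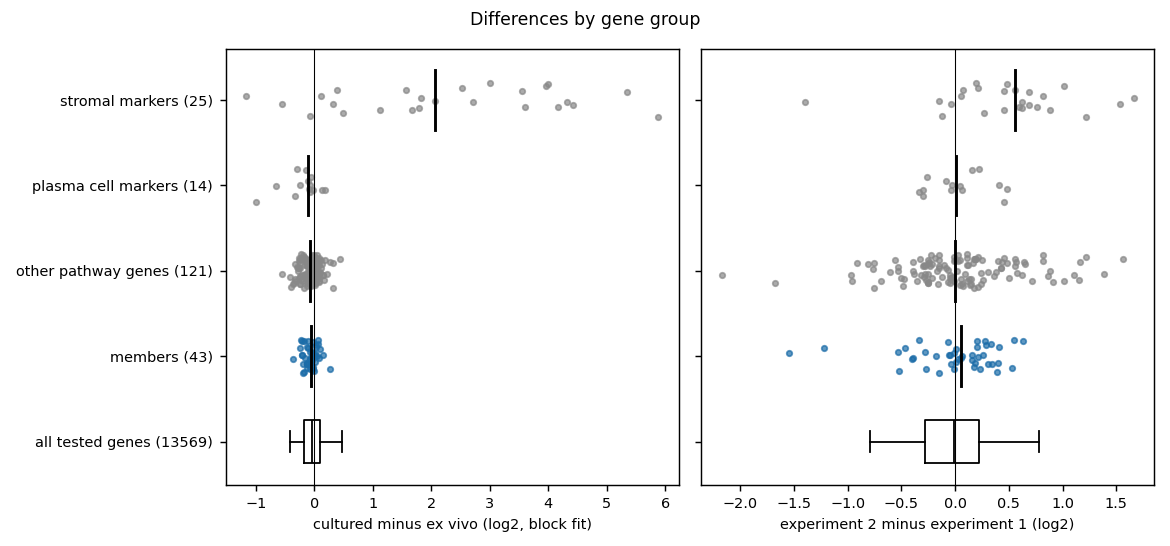
log2 differences with culture (left, block fit) and between the experiments (right) for the 43 members, 121 other genes of the route, 14 PC markers and 25 stromal markers, with vertical lines at group medians and a box for all 13569 tested genes (quartiles, whiskers at the 5th and 95th percentiles). In their brightest probe sets the members stay within -0.36 and 0.27 for culture, while the stromal markers reach 5.88.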

How the data were processed

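The authors processed the raw array signals with the affy package, using RMA. GCOS also appears in the submitters' processing notes, and for none of these was a version given in the sources at hand. What they deposited were intensities on a linear scale, which were taken to log2 here. After removal of 64 control probe sets, the 30477 that reached an intensity of 50 on 2 or more of the 5 arrays went into limma 3.58.1 (R 4.3.3). The models held culture alone, culture plus experiment (which gives both the blocked culture difference and the experiment difference), or both with their interaction. P-values were adjusted by the Benjamini-Hochberg method over all of these, and a gene was represented by its brightest probe set that maps to it alone. Of 45101 probe sets, 11866 had equal log2 values (to 4 decimals) in at least 2 arrays. The number of arrays limits the precision.

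E1 and E2 in the sample titles, read here as experiments 1 and 2, were used to pair the samples. Deviations of same-experiment arrays from their group means correlated at 0.749, 0.558 and 0.719 over the tested probe sets. These correlations are not independent, since with 2 ex vivo arrays the deviations are exact opposites. The models were run on simulated data with known changes and independent noise in each array. That run cannot speak to spread shared by the 2 cultured arrays of experiment 2. Members, other gene lists, motifs and markers were chosen with earlier results of these data known. Members were described with values in all arrays when called for culture or experiment, and otherwise when among the 4 largest or 2 smallest culture differences of their class; Sec61a1 and Sec61b were added as the channel, and Ssr2, Rpn1 and Sec24d for the reasons given beside them. For culture, pathway genes were named as the 2 with the largest differences of each group, and markers as up to 3 of each list. Xbp1, Cd68, Cav1, Pcolce, Lum and Postn were named outside this rule. Promoter sequences came from RefSeq (GRCm38.p6); no genome was used for the array values. Alternatives covered the block, averaging, filter, normalization, moderation, threshold, array weights, probe set choice and leaving out each array.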

Additional observations from a re-analysis of the deposited data

How the results depend on the processing

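The count of members called for culture was 0 without the block, with the replicate block and under every alternative run, each array left out in turn included. The median culture difference of the 43 members was -0.05, -0.06 with the replicate block, and from -0.11 to 0.01 with 1 array left out; it changed sign only without the ex vivo array of experiment 2. That of signal peptidase and OST was -0.06 and ranged from -0.16 to 0.0724 with 1 array left out, the highest again without the ex vivo array of experiment 2. The count of 8 members called between the experiments was 3 with the cultured arrays of experiment 2 averaged, 17 with an intensity trend in eBayes, and from 0 to 6 with 1 array left out; each fit with an array left out has 1 residual degree of freedom. Under the other alternatives it was between 7 and 10. The direction between the experiments was reversed in other probe sets of Sec63 (-0.92 and -0.42, brightest 0.28), Ssr4 (0.68, brightest -0.40), Sec24c (0.74) and Copb2 (0.28), and for Sec24c also in the mean of its probe sets (0.10); the cause was not tested. Single culture differences, none of them called, changed sign for up to 16 of 43 members when 1 array was left out and in 19 of 50 other probe sets. Averaging the pair of cultured arrays in experiment 2 left the interaction with no residual degree of freedom, and it was not run. With 5 arrays, an uncalled difference is limited only by its interval.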

Other observations

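Of the 121 other genes of the route, 23 were called higher and 12 lower in experiment 2 (limma, culture as a covariate), beside 11.0% and 14.1% of all tested genes. Creb3l1, a membrane-bound transcription factor of the ER, was measured at 9.74 and 8.01 ex vivo and 10.05, 7.84 and 7.25 after culture. All arrays of experiment 2 were below those of experiment 1, with a difference of -2.17 ± 0.25 (SE, adjusted p = 0.0052). Its relative Creb3l2 stood at 0.81 ± 0.11 (SE, adjusted p = 0.00678), so that the brightest probe sets of the 2 relatives differed in opposite directions. Other probe sets of the 121 genes were not compared, while those of the members often differed in sign between the experiments. Atf6 and Atf6b, sensors of the UPR, stood at 0.91 ± 0.11 (SE, adjusted p = 0.00527) and -0.97 ± 0.14 (SE, adjusted p = 0.00795). For culture, none of the 9 regulators was called with or without the block.

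Tmed2 and Tmed7 are cargo adaptors of the p24 family. Tmed2 was measured at 9.87 and 8.50 ex vivo and 9.82, 7.74 and 8.11 after culture, and stood at -1.67 ± 0.18 (SE, adjusted p = 0.00476) between the experiments. Tmed7 read 10.44 and 11.74 ex vivo and 10.83, 11.93 and 11.86 after culture, with 1.16 ± 0.12 (SE, adjusted p = 0.00409). The Arf regulator Arfgap2, at 1.22 ± 0.12 (SE, adjusted p = 0.00384), and the COPI delta subunit Arcn1, at 1.01 ± 0.10 (SE, adjusted p = 0.00426), were higher in experiment 2. Of the coat members called, Sec13 was higher as well, and Sec31a, Sec24c and Copb2 were lower in their brightest probe sets. The other probe set of Copb2 stood at 0.28 and that of Sec24c at 0.74. The 3′ to 5′ control ratios that separate the experiments apply to these genes as well, and their part was not tested.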
